A study of Mus musculus with 16 samples.

Results

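What the duplicated chromosome 16 segment changed in the hippocampus of mice that also carry amyloid transgenes was measured by RNA sequencing of polyadenylated transcripts. Of the 16 libraries in the series, 8 enter the comparison: 4 from 5xFAD-Dp16 mice against 4 from 5xFAD mice, chosen by the genotype in the labels and described across all 16684 genes with enough counts to test. All mice were 5 months old. 5xFAD-Dp16 mice carry both the 5xFAD transgenes and the Dp16 duplication, and 5xFAD mice carry the transgenes alone. 5xFAD is a mouse line with human transgenes, APP among them, that bear familial Alzheimer disease mutations. They are driven by the Thy1 promoter, which is active in neurons. Both groups share these transgenes, and the amyloid itself was not measured in these data. The other 8 libraries, 4 from Dp16 mice and 4 from wild-type C57BL/6J mice, are used for the spread between libraries and for the same contrast without the transgenes. All 4 5xFAD-Dp16 libraries came from males, whereas 5xFAD had 2 males (replicates 3 and 4) and 2 females (replicates 1 and 2), and Dp16 and wild-type had 2 of each sex. The model therefore carried a term for sex, which in 5xFAD-Dp16 rests on the other 3 genotypes. Whether each library comes from its own mouse is not stated, so p-values describe the spread among these samples, part of which may be technical.

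Dp16 mice carry an extra copy of the part of mouse chromosome 16 that corresponds to human chromosome 21, and are used as a model of Down syndrome. A duplicated segment on 1 of the pair of chromosomes gives 3 gene copies in place of 2, so an RNA level that follows copy number is 1.5-fold higher. The segment holds App, whose protein is the precursor of the amyloid peptide. It also holds the receptor chains for type I interferon, interferon gamma and interleukin 10, the kinase Dyrk1a and the calcineurin regulator Rcan1. In people with Down syndrome the extra copy of APP is linked to early amyloid plaques. In mouse models of amyloid, microglia around plaques switch on a set of genes that depends on the receptor Trem2 and its adaptor Tyrobp.

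The 5xFAD-Dp16 libraries held 17812977 to 25037769 counts and the 5xFAD libraries 15838097 to 19173691. Of hippocampal marker genes in the table, all 12 dentate gyrus, all 11 CA1 and all 11 CA3 and CA2 genes had enough counts to test. So did all 16 choroid plexus genes and all 14 of meninges and fibroblasts, so this does not test the tissue label. Several libraries stood apart in genes of neighbouring tissue. The mean log2 level of midbrain and hypothalamus genes, relative to all 16 libraries, was 1.91 in 5xFAD-Dp16 replicate 3 and between -0.71 and -0.17 in the other 3 5xFAD-Dp16 libraries. Among 5xFAD libraries, replicates 2 and 4 had 2.72 and 0.81, and replicates 1 and 3 had -0.76 and -0.63. 5xFAD replicate 4 was also high in thalamus genes. For some values that 1 of these libraries decides, the value without it is given as well. Thy1, whose promoter drives the transgenes, averaged 2370 ± 536 CPM in 5xFAD-Dp16 and 2130 ± 363 CPM in 5xFAD, against 858 ± 65.2 CPM for Dp16 and 814 ± 70.2 CPM for wild-type (SD, n = 4 each). Every mean with the transgenes was above every mean without them. CPM are counts scaled to a common library total, with a correction for library composition. They carry no correction for sex, whereas the fitted fold changes do, so a fold change can depart from the CPM printed beside it.

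Across all genes the comparison found 9 that changed at a Benjamini-Hochberg adjusted p below 0.05 in the quasi-likelihood test of edgeR, which is 0.0539% of the 16684 tested. All 9 rose in 5xFAD-Dp16 and none fell (0%). Of the 9, 8 lie in the duplicated segment: Rcan1, Ifnar1, Ifngr2, Gart, Gabpa, Dnajc28, Dyrk1a and C2cd2. The remaining gene is nonagouti (a), on chromosome 2. Unadjusted p-values below 0.05 were found for 547 genes (3.28%), of which 249 were higher (1.49%) and 298 lower (1.79%). With no effect in any gene that threshold would give 834. DESeq2, a second count model, called 27 genes (0.162%), of which 24 were higher and 3 lower, and 21 of the 27 lie in the segment. The calls depended on the design of the fit and on single libraries. No gene was called with males only, with the replicate number as a block or with the 8 compared libraries alone, and without the low-count filter 75 were, 51 higher and 24 lower. No gene was called when 5xFAD replicate 3, 5xFAD-Dp16 replicate 1, 2 or 4, or Dp16 replicate 1, 2 or 3 was left out. The median log2 fold change over all genes was -0.00279, and 49.4% of genes had a positive sign.

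Genes of chromosome 16 between Lipi and Zbtb21, both included, were counted as duplicated, at positions 75540514 to 97962622 of GRCm38, a length of 22.4 Mb. The count table has 384 genes there. Of these, 173 had no count in any of the 16 libraries and 106 had too few counts to test, which left 105. These 105 hold 99.93% of the counts of the segment, and 90 of them are among its 147 protein-coding genes. Of the 105, 97 had a positive sign and 8 a negative sign. The median was 0.534 on the log2 scale, a 1.45-fold difference, with quartiles of 1.35-fold and 1.58-fold. At an unadjusted p below 0.05, 68 were higher and none lower. In 38 of the 105 (36.2%) every 5xFAD-Dp16 library was above every 5xFAD library, against 1.33% of all genes tested. In none was every 5xFAD-Dp16 library below, against 1.28% of all genes tested.

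As 1 value per library, the segment level was the median over its tested genes of the log2 CPM less the mean of the gene in 5xFAD. It was 0.53, 0.40, 0.52 and 0.55 in the 4 5xFAD-Dp16 libraries. It was -0.03, -0.018, 0.004 and 0.046 in the 4 5xFAD libraries. The groups did not overlap, and the means of 0.498 ± 0.0686 in 5xFAD-Dp16 and 0.000373 ± 0.0334 in 5xFAD (SD, n = 4 each) differed by 0.498, or 1.41-fold (exact two-sided permutation test, p = 0.0286, the smallest that 4 against 4 libraries allow). With males only, 4 against 2 libraries, the difference was 0.490. Without the libraries high in midbrain genes it was 0.542, and the median log2 fold change of the segment genes was then 0.563. That leaves 5xFAD-Dp16 replicates 1, 2 and 4 against 5xFAD replicates 1 and 3.

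**Figure D1:**
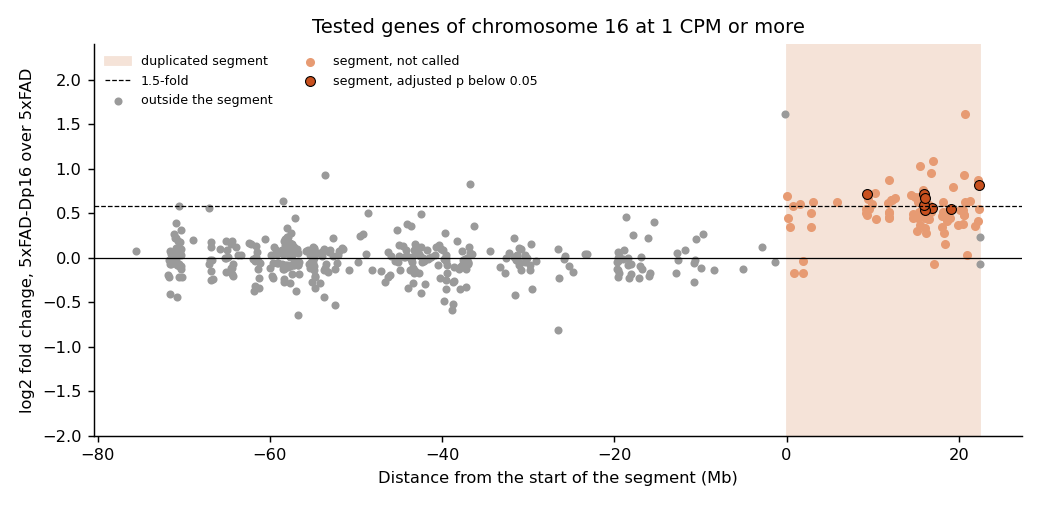
Log2 fold change (5xFAD-Dp16 over 5xFAD) of each tested gene of chromosome 16 with a mean of at least 1 CPM, against its distance in Mb from the start of the duplicated segment. Grey points are genes outside the segment, orange points genes inside it (shaded), dark outlined points those with an adjusted p below 0.05, and the dashed line is 1.5-fold. The 90 segment genes shown centre on a log2 value of 0.533, whereas the 364 shown from the rest of the chromosome centre on -0.00754.

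Outside the segment, chromosome 16 centred near 0. Of 404 tested genes outside the segment none was called, their median was -0.0119, and 191 had a positive sign. In 6 of them all 5xFAD-Dp16 libraries were above all 5xFAD libraries and in 6 all were below. These shares are close to the 1.33% above and 1.28% below among all genes tested. Only 2 of the 404 lie beyond Zbtb21, so the far edge is defined by few genes. Near the other edge, the noncoding gene Gm49678, named after its values were seen, lies just before Lipi. It had 1.64, 1.11, 1.27 and 1.84 CPM in 5xFAD-Dp16 and 0.447, 1.17, 0.279 and 0.345 CPM in 5xFAD. The groups overlapped in 1 5xFAD library, and the log2 fold change of 1.61 was not called (adjusted p = 0.885).

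Most protein-coding genes of the segment were measured well enough to set against 1.5-fold. The 95% interval of the fold change held 1.5 in 87 of 90 genes, and in 63 of these it also left out 1. It lay below 1.5 for Runx1, Son and Morc3 and above it for none. Among the 84 genes with a mean of at least 1 CPM, 71 had a fold change between 1.25 and 1.75, 7 were above and 6 below. By level, the median log2 fold change was 0.52 over the 15 genes at 100 CPM or more, 0.543 over the 54 between 10 and 100 CPM and 0.446 over the 15 between 1 and 10 CPM. It was 0.735 over the 6 under 1 CPM.

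The receptor genes of the interferon family, with Mx1 and Mx2, form the group of segment genes with the highest median. Over the alternatives this median ranged from 0.647 to 0.753. Other groups overlapped that range, with 0.559 to 0.743 for kinase, calcineurin and signalling genes and 0.548 to 0.699 for channel, receptor and adhesion genes. Ifnar1 and Ifnar2 encode the chains of the type I interferon receptor, Ifngr2 a chain of the interferon gamma receptor and Il10rb a chain shared by receptors of interleukin 10 and related cytokines. Mx1 and Mx2 are antiviral genes induced by interferon. All 6 had a positive sign with a median log2 fold change of 0.689, 2 were called, and in 5 the groups did not overlap. Among all 105 tested segment genes 7.62% were called and 36.2% did not overlap, against 0.0539% and 1.33% of all genes tested. Ifnar1 had 56.8, 54.2, 51.2 and 55.1 CPM in 5xFAD-Dp16 libraries and 35.7, 37.7, 33.6 and 38.2 CPM in 5xFAD libraries. The lowest 5xFAD-Dp16 library was well above the highest 5xFAD library, and Ifnar1 rose 1.51-fold (log2 0.59, SE 0.0831, adjusted p = 0.0195). Ifngr2 had 115, 114, 114 and 113 CPM in 5xFAD-Dp16, against 74.4, 56.2, 71.4 and 65.1 CPM in 5xFAD. The 4 5xFAD-Dp16 values are nearly equal while 5xFAD varied, and Ifngr2 rose 1.65-fold (log2 0.72, SE 0.106, adjusted p = 0.0227).

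The other receptor chains had like sizes without passing the threshold. Ifnar2 had 34.3, 32.3, 29.3 and 35.3 CPM in 5xFAD-Dp16 and 23.7, 21.1, 22.4 and 20.9 CPM in 5xFAD. Its groups did not overlap (log2 0.66, SE 0.119, adjusted p = 0.0627), and DESeq2 called it (adjusted p = 0.000545). Il10rb had 13.6, 13.2, 16.4 and 14.4 CPM in 5xFAD-Dp16 and 7.79, 11.1, 9.61 and 8.18 CPM in 5xFAD, also without overlap (log2 0.77, SE 0.179, adjusted p = 0.377). The interferon-induced Mx1 and Mx2 were near the limit of detection: Mx1 averaged 0.793 ± 0.573 CPM in 5xFAD-Dp16 and 0.668 ± 0.252 CPM in 5xFAD, and Mx2 averaged 1.23 ± 0.338 CPM in 5xFAD-Dp16 and 0.535 ± 0.171 CPM in 5xFAD (SD, n = 4 each). Neither was called.

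Genes that act downstream of these receptors but lie outside the segment had no call, where 1 of all 16579 genes outside the segment was called. Of 41 interferon response genes tested, 30 had a positive sign, with a median log2 fold change of 0.0971, against 49.4% positive and -0.00279 over all genes. The median moved to -0.0207 without 5xFAD-Dp16 replicate 4, the library highest in these genes. Irf7, a transcription factor of the interferon response, had 6.62, 4.48, 5.42 and 10.4 CPM in 5xFAD-Dp16 and 5.43, 4.46, 6.26 and 3.99 CPM in 5xFAD. The groups overlapped and the high value is that same library (log2 0.67, SE 0.3, adjusted p = 1). Oasl2 (log2 0.63) and Sp100 (log2 0.48) also overlapped between groups, with an adjusted p of 1. JAK-STAT genes, which carry the receptor signal, had 17 of 27 with a positive sign and a median of 0.0378. Antigen presentation genes had 13 of 16 with a positive sign and a median of 0.162, which ranged from 0.0244 to 0.349 over the alternatives. These medians carry the sex term. Median levels per library, relative to the 5xFAD mean, do not. Interferon response genes then averaged 0.00755 ± 0.265 in 5xFAD-Dp16 and -0.00925 ± 0.113 in 5xFAD, and JAK-STAT genes -0.0507 ± 0.0955 and -0.0142 ± 0.104. Antigen presentation genes averaged -0.0106 ± 0.133 and -0.0124 ± 0.18 (SD, n = 4 each). Within that list H2-DMa, which helps load peptides on class II molecules, had 14.1, 17.7, 14.8 and 13.8 CPM in 5xFAD-Dp16, against 10.9, 12.4, 10.6 and 9.47 CPM in 5xFAD. The groups did not overlap (log2 0.55, SE 0.13, adjusted p = 0.402), and DESeq2 called it narrowly (adjusted p = 0.0499). The class I genes H2-D1 and H2-K1 had log2 fold changes of 0.24 and 0.19 and overlapped. H2 genes have near-identical copies, so their counts are uncertain.

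**Figure D2:**
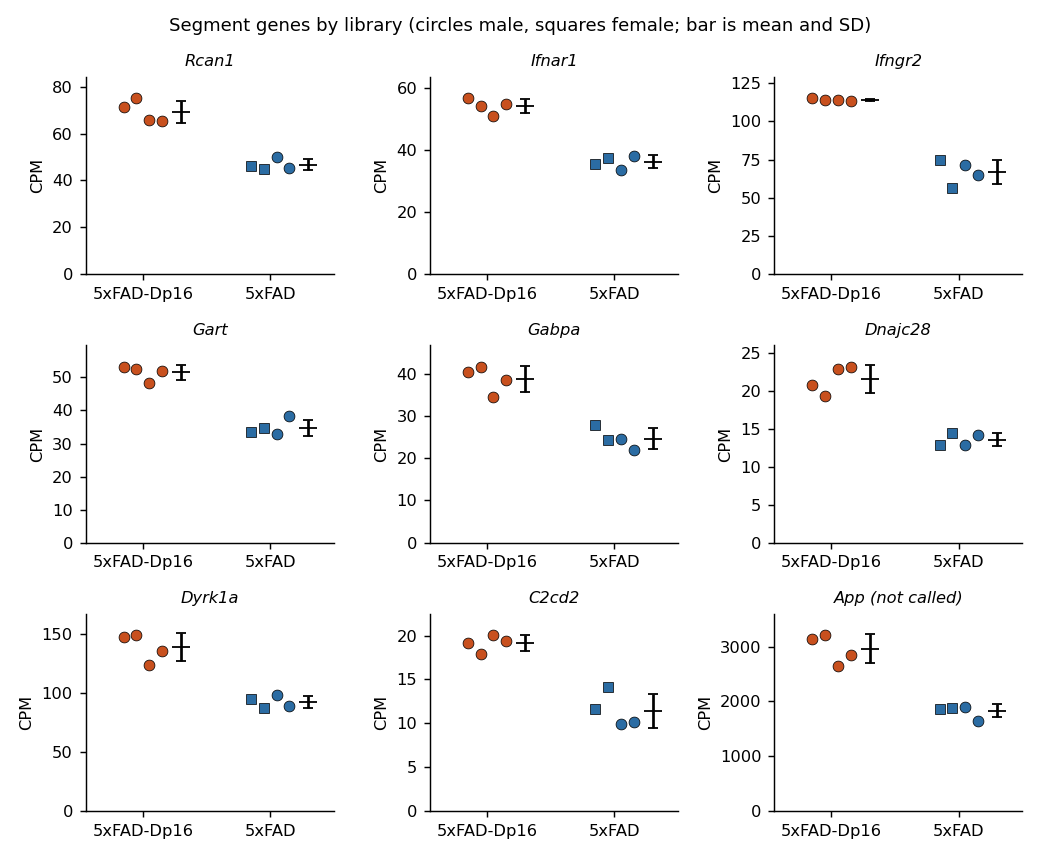
CPM in each 5xFAD-Dp16 and 5xFAD library for the 8 called segment genes and App. Circles are males and squares females, and the bars beside the points are the mean and SD (n = 4). In all 9 panels every 5xFAD-Dp16 library is above every 5xFAD library, for example 51.2 CPM at the lowest against 38.2 CPM at the highest for Ifnar1. The 8 were picked by their p in this same comparison, so the separation follows in part from that choice. Among all tested segment genes 36.2% were above in this way, against 1.33% of all genes tested.

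App, which encodes the amyloid precursor protein, is the segment gene most directly tied to the transgenes. It had 3140, 3220, 2640 and 2850 CPM in 5xFAD-Dp16 and 1870, 1890, 1900 and 1650 CPM in 5xFAD. The groups did not overlap and the fold change was 1.58 (log2 0.66, SE 0.115), but the adjusted p of 0.0574 missed the threshold. DESeq2 called it (adjusted p = 8.86e-06), as did edgeR once the libraries with high midbrain scores were left out (adjusted p = 0.038). The latter set 5xFAD-Dp16 replicates 1, 2 and 4 against only 5xFAD replicates 1 and 3. App averaged 3140 ± 95.8 CPM for Dp16 and 2030 ± 236 CPM for wild-type (SD, n = 4 each). Thus 5xFAD, with the human transgene, was not above wild-type in this mouse gene, and how many reads of the human transgene were counted under mouse App was not tested. Thy1, whose promoter the transgenes use, overlapped between 5xFAD-Dp16 and 5xFAD and was not called (log2 0.11, adjusted p = 1).

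The other segment genes of this group act on proteins at the cell surface or in the matrix. Bace2, a protease related to the beta-secretase Bace1, had 7.19, 3.29, 6.74 and 6.05 CPM in 5xFAD-Dp16 and 6.45, 8.02, 4.36 and 3.2 CPM in 5xFAD. Each group spanned nearly the same range, with means of 5.81 ± 1.75 CPM in 5xFAD-Dp16 and 5.51 ± 2.15 CPM in 5xFAD (SD, n = 4 each). The log2 fold change fitted with the sex term was 0.36 (SE 0.264, adjusted p = 1). The matrix proteases Adamts1 (log2 0.73) and Adamts5 (log2 0.43) overlapped as well. Adamts5 averaged 3.62 ± 1.75 CPM in 5xFAD-Dp16 and 3.47 ± 1.84 CPM in 5xFAD (SD, n = 4 each). Among 18 genes of amyloid precursor processing, 12 had a positive sign with a median of 0.0619, and the median was 0.058 without App and Bace2, which lie in the segment. None of the 18 was called. Aph1b, a gamma-secretase subunit, had the smallest p outside the segment (log2 -0.22, adjusted p = 1).

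The signalling genes hold the kinase and calcineurin regulators that are often studied in Down syndrome. All 15 tested members had a positive sign, with a median log2 fold change of 0.631, and 3 were called. Among all tested segment genes 7.62% were called, and among all genes tested 0.0539%. Rcan1, an inhibitor of the phosphatase calcineurin, had 71.2, 75, 65.7 and 65.3 CPM in 5xFAD-Dp16 and 46.3, 44.8, 50.1 and 45.5 CPM in 5xFAD. The groups were far apart for their spread, and Rcan1 rose 1.48-fold (log2 0.56, SE 0.0784, adjusted p = 0.0195). Dyrk1a, a kinase that phosphorylates tau and many other proteins, had 147, 149, 123 and 135 CPM in 5xFAD-Dp16, against 94.9, 87.2, 97.7 and 88.9 CPM in 5xFAD. It rose 1.46-fold (log2 0.54, SE 0.0904, adjusted p = 0.0405). C2cd2, which encodes a protein with a C2 domain, had 19.2, 17.9, 20.1 and 19.4 CPM in 5xFAD-Dp16, against 11.6, 14.1, 9.89 and 10.1 CPM in 5xFAD. Its 1.75-fold rise was the largest of the 8 (log2 0.81, SE 0.136, adjusted p = 0.0405), and the 2 female 5xFAD libraries were the higher ones.

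Genes of endocytosis and synaptic vesicle traffic were among the uncalled signalling genes. Synj1, a lipid phosphatase of vesicle uncoating, had 751, 854, 527 and 645 CPM in 5xFAD-Dp16 and 428, 428, 462 and 311 CPM in 5xFAD. The groups did not overlap (log2 0.68, SE 0.194, adjusted p = 0.885). Itsn1, an endocytic scaffold, likewise did not overlap, at 231 to 327 CPM in 5xFAD-Dp16 and 144 to 221 CPM in 5xFAD (log2 0.53, adjusted p = 1). Tiam1, an activator of the small GTPase Rac, was at 117 to 232 CPM in 5xFAD-Dp16 and 74.3 to 131 CPM in 5xFAD and overlapped. Genes of the calcineurin and NFAT pathway outside the segment had 10 of 13 with a positive sign, a median of 0.0665 and no call.

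Transcription and chromatin genes were the largest group, with 18 tested, all with a positive sign and a median log2 fold change of 0.497. Gabpa, the DNA-binding subunit of the ETS factor GABP, which is known for promoters of housekeeping and mitochondrial genes, had 40.5, 41.7, 34.6 and 38.4 CPM in 5xFAD-Dp16. In 5xFAD it had 27.9, 24.2, 24.5 and 21.9 CPM. No value was shared and Gabpa rose 1.64-fold (log2 0.71, SE 0.117, adjusted p = 0.0405). It was the only call of the 18, where 7.62% of all tested segment genes were called. Bach1, a repressor of antioxidant genes, had 21.0, 20.5, 22.7 and 20.9 CPM in 5xFAD-Dp16 and 12.4, 15.5, 13 and 14.6 CPM in 5xFAD (log2 0.65, SE 0.118, adjusted p = 0.0627). Brwd1, a bromodomain protein, was at 83.8 to 105 CPM in 5xFAD-Dp16 and 61.0 to 64.4 CPM in 5xFAD (log2 0.53, adjusted p = 0.0627). Neither overlapped, and DESeq2 called both (adjusted p = 9.17e-05 for Bach1 and 0.000244 for Brwd1). The splicing cofactor Son was tightly measured, at 282 to 327 CPM in 5xFAD-Dp16 and 226 to 237 CPM in 5xFAD, and its fold change of 1.26 had an interval of 1.10 to 1.45.

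Olig1 and Olig2, factors of the oligodendrocyte lineage, sit side by side in the segment. Olig1 had 193, 190, 205 and 185 CPM in 5xFAD-Dp16 and 159, 162, 131 and 127 CPM in 5xFAD, without overlap (log2 0.52, SE 0.117, adjusted p = 0.313). Olig2 had 53.2, 43.3, 53.6 and 43.1 CPM in 5xFAD-Dp16 and 47.8, 52.0, 31.7 and 26.8 CPM in 5xFAD. The female 5xFAD libraries reached the 5xFAD-Dp16 range for Olig2 and the male ones did not (log2 0.54, SE 0.175, adjusted p = 1). For the other markers of their cells values were small: over the 14 oligodendrocyte precursor genes tested the median was 0.104, and 0.0947 without Olig1 and Olig2. In bulk tissue, fewer cells of a type and less RNA per cell cannot be told apart.

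The promoters of 3 of the 8 called segment genes, Gabpa itself among them, hold the ETS core that the Gabpa protein is known to bind. They are shown for their letters only. A rise together with Gabpa does not set these genes apart, as 97 of the 105 tested segment genes had a positive sign. The letters CCGGAAG were searched on both strands (the other strand reads CTTCCGG) in RefSeq windows of GRCm38.p6 that run from 250 bases before to 50 bases after the start of each transcript. Capitals mark the matches.
Ifnar1, chr16:91484965-91485264, plus strand: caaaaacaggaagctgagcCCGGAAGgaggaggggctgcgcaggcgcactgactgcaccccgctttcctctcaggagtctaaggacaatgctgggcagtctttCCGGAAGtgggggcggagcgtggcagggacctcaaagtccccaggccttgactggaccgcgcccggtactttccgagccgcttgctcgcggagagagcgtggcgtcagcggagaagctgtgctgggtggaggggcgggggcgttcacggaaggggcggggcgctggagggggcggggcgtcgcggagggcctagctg
Gart, chr16:91646923-91647222, minus strand: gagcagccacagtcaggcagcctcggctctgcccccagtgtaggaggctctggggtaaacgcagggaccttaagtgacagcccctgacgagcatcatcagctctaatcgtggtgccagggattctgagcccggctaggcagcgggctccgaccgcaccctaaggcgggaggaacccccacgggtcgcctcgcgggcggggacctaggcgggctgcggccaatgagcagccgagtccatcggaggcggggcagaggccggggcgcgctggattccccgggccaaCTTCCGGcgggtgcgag
Gabpa, chr16:84834874-84835173, plus strand: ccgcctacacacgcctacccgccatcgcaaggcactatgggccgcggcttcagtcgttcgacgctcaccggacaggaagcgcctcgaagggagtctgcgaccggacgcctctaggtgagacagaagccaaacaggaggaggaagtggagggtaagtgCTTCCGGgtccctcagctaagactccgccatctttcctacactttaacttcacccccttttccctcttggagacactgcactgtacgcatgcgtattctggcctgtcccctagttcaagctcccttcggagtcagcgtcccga
The Ifnar1 window holds matches that begin 231 and 147 bases before the start, the Gabpa window holds 1 that begins 93 bases before it, and the Gart window 1 that begins 33 bases after it. The windows of Rcan1, Ifngr2, Dnajc28, Dyrk1a and C2cd2 do not hold these letters. A window with the letters was found for 23 of 81 tested segment genes with a window (28.4%), for 17.4% of the 12232 tested genes with one and for 9.93% of all 27025 genes with one. Of all 32851 windows, 8.86% hold them. The Gabpa window overlaps that of Atp5j, a gene of the opposite strand, by 247 bases. A match describes the letters of the window and shows no binding.

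Genes of protein folding, turnover and translation had positive signs throughout. Of 9 ubiquitin, proteasome and folding genes all had a positive sign, with a median log2 fold change of 0.481, and of 6 RNA-binding and ribosome genes all did, with a median of 0.567. Dnajc28, a member of the DnaJ family of co-chaperones, had 20.8, 19.3, 22.9 and 23.2 CPM in 5xFAD-Dp16 and 12.8, 14.5, 12.8 and 14.2 CPM in 5xFAD. It rose 1.59-fold without overlap (log2 0.66, SE 0.11, adjusted p = 0.0405). Ttc3, a ubiquitin ligase, was the abundant member, with 1390, 1360, 1370 and 1350 CPM in 5xFAD-Dp16 and 937, 970, 920 and 1010 CPM in 5xFAD. Its groups were widely separated, yet the adjusted p was 0.0604 (log2 0.51, SE 0.0906), and DESeq2 called it (adjusted p = 2.76e-13). Cct8, a subunit of the chaperonin that folds actin and tubulin, was at 257 to 288 CPM in 5xFAD-Dp16 and 164 to 213 CPM in 5xFAD (log2 0.52, adjusted p = 0.247). The mitochondrial ribosomal gene Mrpl39 was at 36.0 to 46.2 CPM in 5xFAD-Dp16 and 25.5 to 31.5 CPM in 5xFAD (log2 0.55, adjusted p = 0.14). Neither overlapped.

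Mitochondrial, redox and metabolic genes had 12 of 12 with a positive sign and a median log2 fold change of 0.487. Gart, an enzyme of purine synthesis, had 53.3, 52.6, 48.2 and 51.9 CPM in 5xFAD-Dp16 and 33.4, 34.7, 32.8 and 38.3 CPM in 5xFAD. It rose 1.45-fold (log2 0.54, SE 0.0824, adjusted p = 0.0256). Gart was the only call of the 12, where 7.62% of all tested segment genes were called. Sod1, the cytosolic superoxide dismutase, had 355, 324, 457 and 363 CPM in 5xFAD-Dp16 and 235, 262, 253 and 329 CPM in 5xFAD. 5xFAD replicate 4 reached the 5xFAD-Dp16 range (log2 0.49, SE 0.147, adjusted p = 0.933), and without it the log2 value was 0.66 (adjusted p = 0.221). The ATP synthase subunits Atp5j (log2 0.48) and Atp5o (log2 0.43) overlapped through the same library, at 149 and 245 CPM against group means in 5xFAD-Dp16 of 154 ± 22.9 and 237 ± 44.3 CPM (SD, n = 4). That library was also the highest of the 5xFAD group in respiratory chain genes outside the segment, with a median log2 level of 0.33 relative to the 5xFAD mean, and without it the log2 values were 0.74 for Atp5j and 0.72 for Atp5o, not called (adjusted p = 0.126 and 0.353). Without all the libraries high in midbrain genes Atp5j was called (log2 0.64, adjusted p = 0.0471). Respiratory chain genes outside the segment had 8 of 33 with a positive sign and a median of -0.0822, or 0.0586 without that library. Antioxidant genes had 6 of 20 with a positive sign, Sod1 included, and a median of -0.057, or 0.061 without that library.

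Among channel, receptor and adhesion genes all 11 tested had a positive sign and the median log2 fold change was 0.636, but none was called. Over all tested segment genes 7.62% were called. Ncam2, a neural cell adhesion molecule, had 131, 140, 137 and 143 CPM in 5xFAD-Dp16 and 84.8, 99.5, 98.5 and 80.9 CPM in 5xFAD, without overlap (log2 0.62, SE 0.134, adjusted p = 0.247). Grik1, a kainate receptor subunit, was at 17.9 to 21.0 CPM in 5xFAD-Dp16 and 11.9 to 13 CPM in 5xFAD (log2 0.67, adjusted p = 0.885). Dscam, an adhesion molecule of neurite wiring, was at 98.5 to 147 CPM in 5xFAD-Dp16 and 56.5 to 89.0 CPM in 5xFAD (log2 0.64, adjusted p = 1). Kcnj6, an inwardly rectifying potassium channel, had 54.9, 76.7, 32.2 and 42.8 CPM in 5xFAD-Dp16 and 36.9, 23.1, 31.5 and 16 CPM in 5xFAD. The groups overlapped and each varied widely (log2 0.79, SE 0.404, adjusted p = 1). Kcnj6 was lowest of its group in 5xFAD-Dp16 replicate 3 and 5xFAD replicate 4, both high in midbrain genes, and its log2 value was 0.68 without the libraries high in those genes, 0.46 without 5xFAD replicate 4 and 0.97 without 5xFAD-Dp16 replicate 3.

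Kcne2, a potassium channel subunit, and Clic6, a chloride channel family member placed here among the signalling genes, are strongly expressed in the choroid plexus, the tissue that secretes cerebrospinal fluid. Clic6 had 156, 10.2, 44.4 and 127 CPM in 5xFAD-Dp16 and 40.6, 5.85, 108 and 28.7 CPM in 5xFAD. Kcne2 had 44.3, 1.49, 28.3 and 49.1 CPM in 5xFAD-Dp16 and 12.9, 0.446, 39.7 and 19 CPM in 5xFAD. The median log2 level of the 14 choroid plexus genes outside the segment, relative to the 5xFAD mean, was 1.64, -2.20, 0.33 and 1.49 in the 5xFAD-Dp16 libraries and 0.37, -2.79, 1.93 and 0.67 in the 5xFAD libraries. Both genes were low in 5xFAD-Dp16 replicate 2 and 5xFAD replicate 2, where that level was lowest, and how far it sets them was not tested. Neither log2 fold change, 1.09 with an SE of 1.22 for Clic6 and 0.95 with an SE of 1.54 for Kcne2, was larger than its error.

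Blood-lineage and vascular genes included the 1 protein-coding gene of the segment with a negative sign. Runx1, a transcription factor of blood cells, had 3.79, 4.44, 2.33 and 3.68 CPM in 5xFAD-Dp16 and 3.51, 3.01, 4.25 and 2.81 CPM in 5xFAD. The groups covered the same range, and the fold change of 0.953 had an interval of 0.643 to 1.41, which leaves out 1.5. The sign turned positive, with log2 values of 0.016 to 0.089, in 5 alternatives that dropped the sex term or some libraries. Samsn1, an adaptor of B cells and mast cells, had 5.71, 5.97, 6.23 and 7.0 CPM in 5xFAD-Dp16 and 4.92, 4.85, 4.30 and 6.21 CPM in 5xFAD, overlapping in 1 library (log2 0.35, SE 0.192, adjusted p = 1). Ets2 (log2 0.54) and the endothelial genes Erg (log2 0.37) and Jam2 (log2 0.50) were not called. Of these 3, only Jam2 did not overlap, at 72.1 to 96.4 CPM in 5xFAD-Dp16 and 53.2 to 70.8 CPM in 5xFAD.

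Genes at the ends of the distribution varied widely between libraries. Sh3bgr, an SH3-binding protein, had 2.15, 2.90, 10.5 and 3.58 CPM in 5xFAD-Dp16 and 1.28, 4.01, 1.62 and 1.68 CPM in 5xFAD. Its log2 fold change was 1.61 (SE 0.644), or 0.88 without 5xFAD-Dp16 replicate 3. 4932438H23Rik had 4.19, 1.79, 2.89 and 5.63 CPM in 5xFAD-Dp16 and 2.17, 1.89, 2.46 and 1.82 CPM in 5xFAD (log2 1.03, SE 0.407). Pcp4, a calmodulin regulator, had 114, 89.7, 198 and 146 CPM in 5xFAD-Dp16 and 82.1, 98.4, 89.2 and 272 CPM in 5xFAD (log2 0.027, SE 0.397). Its highest value is that of 5xFAD replicate 4, without which the log2 value was 0.87, whereas it was -0.20 without 5xFAD-Dp16 replicate 3. At the low end, the noncoding Mir99ahg host transcript (log2 -0.17), the pseudogene Gm9843 (log2 -0.17) and the unclassified 9430053O09Rik (log2 -0.039) had the opposite sign in some alternatives. The remaining negative genes, A930006K02Rik, Gm2541, C130023A14Rik and Gm10791, were noncoding, pseudogene or unclassified and averaged under 1 CPM in both groups.

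Whether the duplication acted alike without the transgenes was asked by setting Dp16 against wild-type, a contrast between other libraries. Both contrasts come from 1 model with a shared spread and sex term, so their calls are not independent. There 14 genes were called (0.0839%), 13 of them in the segment, and the segment median was 0.516 on the log2 scale, beside 0.534 with the transgenes. Of the 9 genes called with the transgenes, 8 were also called in Dp16 against wild-type, which is 88.9% of the 9 and 57.1% of the 14. The exception was C2cd2, with log2 fold changes of 0.81 with the transgenes and 0.64 without them. The segment level differed by 0.548 between Dp16 (0.558 ± 0.0378) and wild-type (0.0101 ± 0.0842; SD, n = 4 each; exact two-sided permutation test, p = 0.0286, the smallest possible).

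The difference between both effects was tested as an interaction in the same model. No gene was called by edgeR (0%), where the smallest adjusted p was 1, nor by DESeq2 (0%). Unadjusted p-values below 0.05 were found for 332 genes (1.99%). In the segment the median interaction was -0.0176, 39 protein-coding genes had a larger fold change with the transgenes and 51 a smaller one, and 1 gene, 4932438H23Rik, had an unadjusted p below 0.05. Olig1 had log2 fold changes of 0.52 with the transgenes and 0.19 without them, a difference of 0.33 (unadjusted p = 0.0534, adjusted p = 1). Olig2 had 0.54 with them and 0.074 without, a difference of 0.46 (unadjusted p = 0.0689, adjusted p = 1). Neither difference was called, and a p that misses the threshold does not show that the effects are equal.

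**Figure D3:**
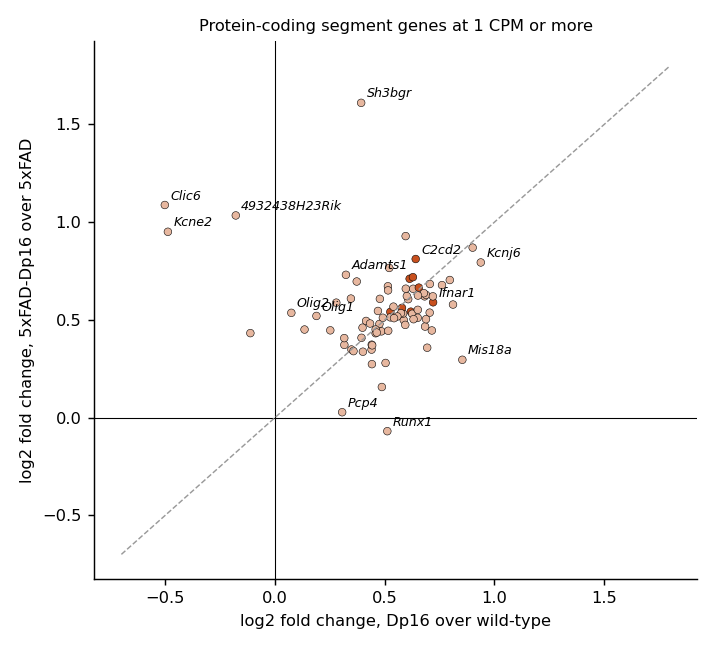
Log2 fold change of each protein-coding segment gene with a mean of at least 1 CPM: vertical axis 5xFAD-Dp16 over 5xFAD, horizontal axis Dp16 over wild-type. Dark points were called in 5xFAD-Dp16 against 5xFAD, and the dashed line marks equal values. Most points gather near 0.5 on both axes, while Clic6 (1.09), Kcne2 (0.95) and Sh3bgr (1.61) lie above.

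Outside the segment 16579 genes were tested and 1 was called. Nonagouti (a), which encodes the agouti signalling peptide that sets coat colour, had 42, 57, 30 and 53 counts in the 5xFAD-Dp16 libraries. It had 0, 0, 0 and 3 counts in the 5xFAD libraries, the 3 being in replicate 4. The 182 counts against 3 give a ratio of 54.5 per scaled library with a 95% counting interval of 18.4 to 267 (fitted log2 5.4, SE 0.687, adjusted p = 0.0195). The same gene averaged 2.08 ± 0.319 CPM in Dp16 and was at 0 in all 4 wild-type libraries, and it was called in both contrasts. Of the genes outside the segment, 184 had every 5xFAD-Dp16 library above every 5xFAD library (1.11%) and 214 had every one below (1.29%).

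A few further genes outside the segment were called by DESeq2 and not by edgeR in the same design, and are named after their values were seen. Pik3r3, a regulatory subunit of phosphoinositide 3-kinase, had 23.8, 24.7, 28.2 and 29.1 CPM in 5xFAD-Dp16 and 36.5, 42.6, 34.8 and 39.0 CPM in 5xFAD. Every 5xFAD-Dp16 library was below (log2 -0.49, SE 0.102, edgeR adjusted p = 0.195, DESeq2 adjusted p = 0.00339), and edgeR called it with no sex term (adjusted p = 0.0369). Slc5a5, the sodium iodide symporter, had 42.9, 37.9, 36.2 and 42.3 CPM in 5xFAD-Dp16 and 23, 31.7, 24.7 and 24.7 CPM in 5xFAD (log2 0.62, SE 0.135, edgeR adjusted p = 0.247, DESeq2 adjusted p = 0.012), and edgeR called it without the midbrain-high libraries (adjusted p = 0.0243) and on the unfiltered table (adjusted p = 0.0182). The noncoding A930007I19Rik and A730081D07Rik had log2 fold changes of -2.28 and -1.12 and averaged 0.221 ± 0.103 and 1.14 ± 0.301 CPM in 5xFAD-Dp16. In 5xFAD they averaged 1.11 ± 0.345 and 2.68 ± 0.22 CPM (SD, n = 4 each). None of the 4 overlapped between groups.

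Of the 33 gene lists for cell types, regions, states, pathways and sex markers outside the segment roles, none had a called member. Outside the segment only 1 of 16579 genes was called at all, so this is the background rate. Most medians lay near 0, but those of thalamus (-0.525), blood (-0.405), choroid plexus (0.299) and ribosomal protein genes (-0.236) did not. Over the alternatives the median ranged from -0.593 to 0.319 for blood and from -0.412 to 1.36 for choroid plexus. That of midbrain and hypothalamus genes was -0.161 and ranged from -0.912 to 0.635. Of the 33 medians, 26 had the opposite sign in at least 1 of 10 alternatives, whereas the medians of the 9 segment roles stayed between 0.408 and 0.753. Orthologues of human chromosome 21 genes that lie on mouse chromosomes 10 and 17, and so have no extra copy in these mice, had 23 of 44 with a positive sign and a median log2 fold change of 0.0106. Cbs, an enzyme of sulphur amino acid metabolism from that list, had 17.9, 17.3, 24.3 and 19.5 CPM in 5xFAD-Dp16, against 25.6, 25.7, 25.1 and 27.6 CPM in 5xFAD. All 4 5xFAD-Dp16 libraries were below (log2 -0.40, SE 0.152, adjusted p = 1).

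**Figure D4:**
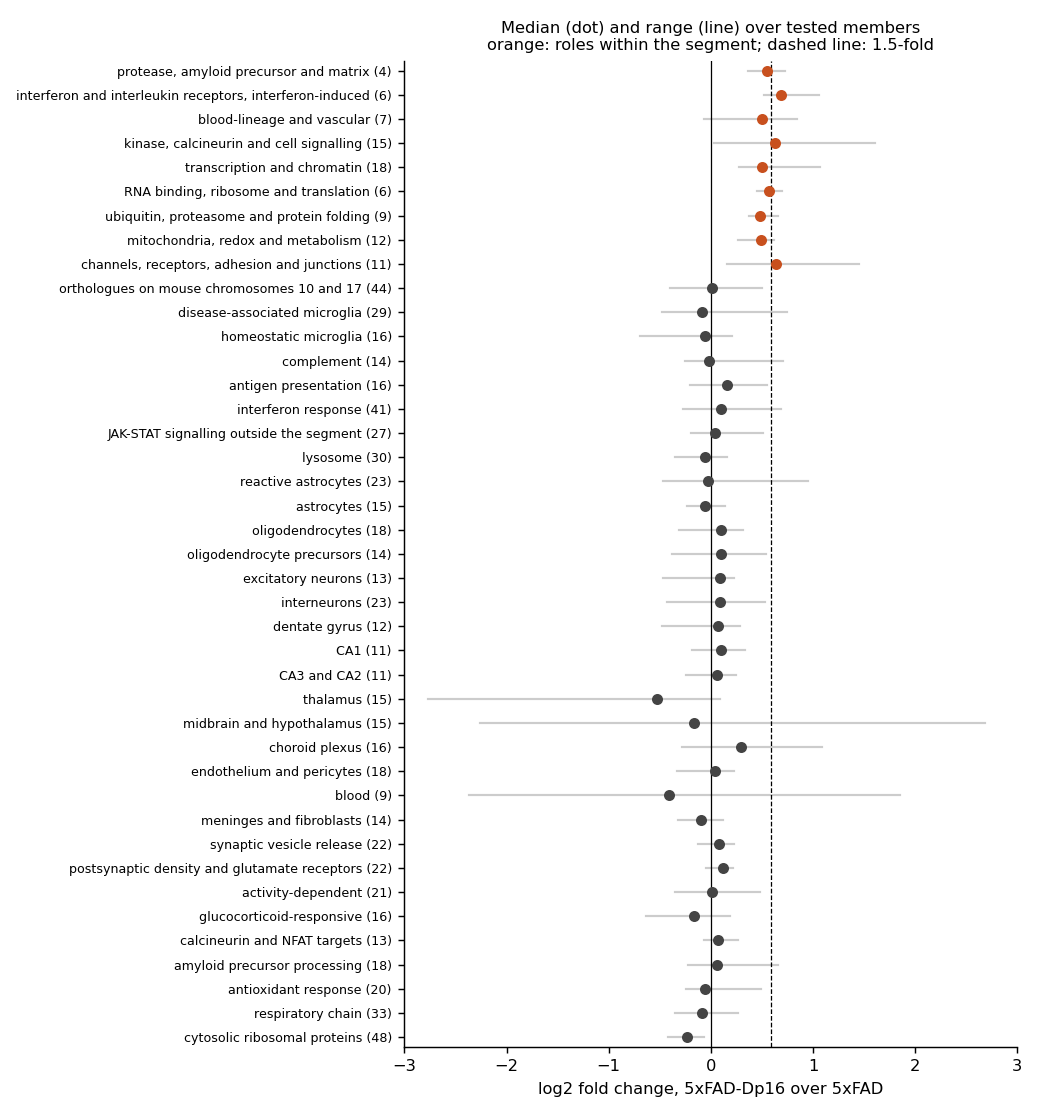
Median (dot) and range (line) of the log2 fold change, 5xFAD-Dp16 over 5xFAD, over the tested members of each list, with the number of members in parentheses. Orange dots are roles within the segment, dark dots all other lists, and the dashed line is 1.5-fold. The 9 segment roles lie between 0.481 and 0.689, and the other lists scatter around 0, with thalamus at -0.525.

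Microglial genes were examined because they respond to amyloid. Of 29 disease-associated microglia genes, 12 had a positive sign and the median log2 fold change was -0.085, with a range of -0.149 to -0.0282 over the alternatives, and none was called. Tyrobp, the signalling adaptor of Trem2, had 36.2, 34.1, 44.2 and 34.2 CPM in 5xFAD-Dp16 and 70, 50.7, 44.4 and 57.3 CPM in 5xFAD. Trem2 had 39.7, 41.8, 39.1 and 30 CPM in 5xFAD-Dp16 and 74.4, 52.6, 47.3 and 49.8 CPM in 5xFAD. For both genes every 5xFAD-Dp16 library was below every 5xFAD library, by a narrow margin for Tyrobp, and the female 5xFAD replicate 1 was the highest. Both were named for having the smallest p of the list, and 1.28% of all genes tested lay below in this way. Neither passed (log2 -0.47, SE 0.136, adjusted p = 0.91 for Tyrobp and log2 -0.48, SE 0.159, adjusted p = 1 for Trem2). With males only the values were -0.43 and -0.35, with an adjusted p of 0.646 for each.

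Some other microglial genes, picked by their p or after their values were seen, also had every 5xFAD-Dp16 library below. Gpr34, a lysophospholipid receptor of homeostatic microglia, had 12.3, 16, 13.7 and 12.7 CPM in 5xFAD-Dp16 and 26.6, 22.2, 21.7 and 23.3 CPM in 5xFAD (log2 -0.69, SE 0.182, adjusted p = 0.727). The Fc receptor Fcgr3, named after its values were seen, had 26.6, 27.3, 26 and 27.3 CPM in 5xFAD-Dp16 and 42.0, 41.1, 32.5 and 39.0 CPM in 5xFAD (log2 -0.40, SE 0.103, adjusted p = 0.615). In both genes no 5xFAD-Dp16 library reached the lowest 5xFAD library. The whole lists were less one-sided: 6 of 16 homeostatic microglia genes had a positive sign, with a median of -0.0551 that ranged from -0.253 to 0.154 over the alternatives. Relative to the 5xFAD mean, their median level was 0.029, 0.063, -0.29 and -0.14 in 5xFAD-Dp16 and 0.40, 0.022, -0.052 and -0.49 in 5xFAD. For disease-associated microglia genes it was -0.14, -0.22, -0.085 and -0.22 in 5xFAD-Dp16 and 0.25, 0.036, -0.076 and -0.23 in 5xFAD. Both lists overlapped between groups. P2ry12, a purine receptor and marker of resting microglia, overlapped at 42.2 to 54.3 CPM in 5xFAD-Dp16 and 45.9 to 72.6 CPM in 5xFAD (log2 -0.20, adjusted p = 1). Lysosome genes had 11 of 30 with a positive sign and a median of -0.0618, and complement genes 7 of 14 and a median of -0.0178.

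Cst7, a cathepsin inhibitor induced in these microglia, had 31.8, 29.6, 26.6 and 20 CPM in 5xFAD-Dp16 and 67.5, 41.4, 40.5 and 28.7 CPM in 5xFAD (log2 -0.44, SE 0.323, adjusted p = 1). Clec7a was at 12.4 to 18.8 CPM in 5xFAD-Dp16 and 15.3 to 26.8 CPM in 5xFAD, and Itgax at 4.05 to 9.22 CPM in 5xFAD-Dp16 and 4.44 to 19 CPM in 5xFAD. 5xFAD replicate 1, a female, was the highest 5xFAD library in all 3. Apoe, a lipid carrier, was at 2630 to 3250 CPM in 5xFAD-Dp16 and 2920 to 3510 CPM in 5xFAD (log2 -0.05, adjusted p = 1). Plcg2, a phospholipase downstream of Trem2, had a positive sign, with 10.9, 12.3, 9.27 and 11.6 CPM in 5xFAD-Dp16 and 9.97, 6.91, 6.76 and 5.87 CPM in 5xFAD (log2 0.67, SE 0.176, adjusted p = 0.724). These genes were named after their values were seen.

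**Figure D5:**
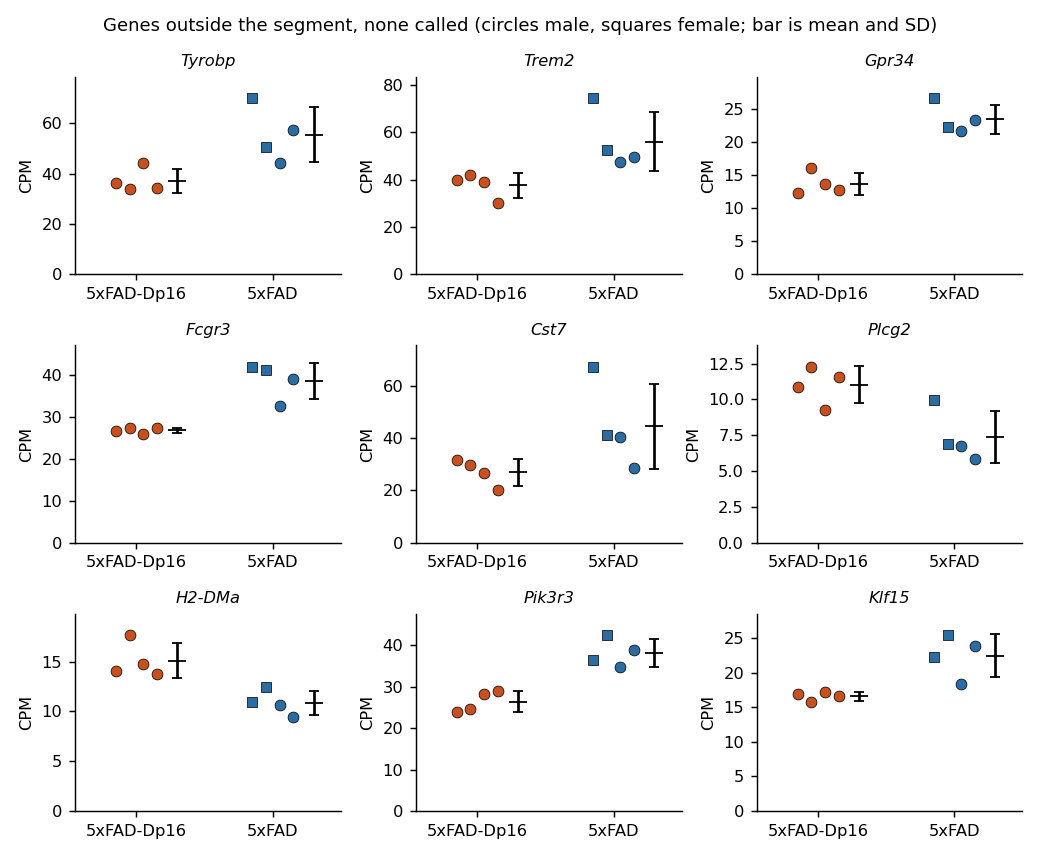
CPM in each 5xFAD-Dp16 and 5xFAD library for 9 genes outside the segment, none of which edgeR called with the sex term and all 16 libraries. Circles are males and squares females, and the bars beside the points are the mean and SD (n = 4). In Tyrobp, Trem2, Gpr34, Fcgr3, Pik3r3 and Klf15 every 5xFAD-Dp16 library is below every 5xFAD library (for Gpr34, 16 CPM at the highest against 21.7 CPM at the lowest), and in H2-DMa every one is above. The genes were picked by the smallest p of their list or after their values were seen. Among all genes tested 1.28% lie below in this way and 1.33% above.

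Astrocyte, neuron and synapse lists were also examined. Reactive astrocyte genes had 9 of 23 with a positive sign and a median log2 fold change of -0.0288, and astrocyte markers 5 of 15 and -0.0534. Genes of synaptic vesicle release had 17 of 22 with a positive sign and a median of 0.0803, and postsynaptic genes 20 of 22 and 0.116. Both medians turned negative, at -0.0753 and -0.119, without 5xFAD replicate 4. Excitatory neuron genes had 8 of 13 with a positive sign (median 0.0911), interneuron genes 16 of 23 (0.0937) and activity-dependent genes 13 of 21 (0.01). Dentate gyrus, CA1 and CA3 and CA2 genes had medians of 0.0726, 0.101 and 0.063. Over the alternatives the median ranged from -0.123 to 0.239 for excitatory neurons, -0.0839 to 0.168 for dentate gyrus, -0.119 to 0.329 for CA1 and -0.0596 to 0.212 for CA3 and CA2. Myelinating oligodendrocyte genes had 14 of 18 with a positive sign and a median of 0.101, or -0.115 without 5xFAD-Dp16 replicate 3. Endothelium and pericyte genes had a median of 0.0405, and those of meninges and fibroblasts -0.1 (-0.315 to 0.302 over the alternatives). Glucocorticoid-responsive genes had 4 of 16 with a positive sign and a median of -0.166, or 0.0647 without the libraries high in midbrain genes. Among them Klf15, a transcription factor of metabolism, had 16.9, 15.7, 17.2 and 16.7 CPM in 5xFAD-Dp16 and 22.3, 25.5, 18.3 and 23.8 CPM in 5xFAD, without overlap (log2 -0.42, SE 0.115, adjusted p = 0.781).

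Among the lists outside the segment roles, the 2 with the most one-sided signs, ribosomal and thalamus genes, had their extreme level in 5xFAD replicate 4. All 48 cytosolic ribosomal protein genes had a negative sign, with a median log2 fold change of -0.236. Relative to the 5xFAD mean, their median level was -0.35, -0.39, 0.05 and -0.17 in the 5xFAD-Dp16 libraries and -0.22, -0.10, -0.18 and 0.50 in the 5xFAD libraries. Without 5xFAD replicate 4 the median fold change was 0.0438. Thalamus genes had 1 of 15 with a positive sign and a median of -0.525, or -0.0817 without 5xFAD replicate 4. Tnnt1, a troponin gene of that list, had 0.905, 1.54, 3.44 and 2.1 CPM in 5xFAD-Dp16 and 1.21, 6.41, 2.63 and 41.8 CPM in 5xFAD. 5xFAD replicate 4 was far above the other 7 libraries (log2 -2.77, SE 0.879, adjusted p = 1; log2 -0.25 without it).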

How the data were processed

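Libraries were grouped by the genotype and replicate number in the labels. The authors deposited raw counts per gene and RPKM values (counts relative to gene length and to the reads of the library) for 55385 genes, made with HISAT2 2.1.0, SAMtools 1.5 and HTSeq 0.6.1 on GRCm38, per the submitters' processing notes. How strand was treated in counting: not given in the sources used here. Values of overlapping or antisense genes are therefore uncertain. In all 27505 genes with 2 or more values the deposited RPKM was the count divided by 1 length and the library total (relative tolerance 1e-06), so the tests used counts. Of the identifiers, 55144 were found in a GRCm38 annotation, which gave positions.

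Counts were filtered with the default filter of edgeR 4.0.16 in R 4.3.3 and scaled by TMM. A robust quasi-likelihood model with a term per genotype and 1 for sex was fitted over all 16 libraries. A gene was called at a Benjamini-Hochberg adjusted p below 0.05 over all 16684 genes. SEs were derived from the fold change and its F statistic, and intervals are 95% intervals of the fold change. Library totals were 15838097 to 25037769 in the 8 libraries compared, and counting intervals cover counting error only. Segment levels used log2 CPM with a prior count of 2 and exact permutation tests in scipy 1.17.1. The steps were tested on simulated data. Replicates differed by more than counting noise.

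The comparison, gene lists and named genes were chosen with earlier results of these data known. Named genes were App, Thy1 and a, and some genes that the rule takes are not reported here. From the segment they were the 12 genes with the smallest p, a fixed set of receptor, kinase and lineage genes and the 4 highest and 4 lowest fold changes at 1 CPM or more. Up to 3 genes with the smallest p were taken per list, and further segment genes were added to fill the roles. DESeq2 1.42.0, other filters and designs, and leaving out single libraries were the alternatives. Leaving out the 4 libraries with a midbrain score above 0.5 was chosen after seeing the data.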

Additional observations from a re-analysis of the deposited data

Results flagged for a closer look

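In groups of 4 libraries, 13 of 234 group values examined had 1 library farther from the others than Dixon's 95% criterion allows, where chance flags about 1 in 20. Scores are median log2 levels of a list relative to the 5xFAD mean. Within 5xFAD-Dp16, replicate 3 was highest in the midbrain and hypothalamus score (1.55), the oligodendrocyte score (0.44) and Sumo3 (107 CPM), and replicate 2 in the blood score (0.45). Within 5xFAD, replicate 4 was highest in the ribosomal protein score (0.50), Tnnt1 (41.8 CPM) and nonagouti (0.148 CPM). It was lowest in the antigen presentation score (-0.28), the interferon response score (-0.18), App (1650 CPM) and H2-K1 (37.9 CPM). 5xFAD replicate 2 was highest in Sh3bgr (4.01 CPM), and 5xFAD replicate 3 lowest in A730081D07Rik (2.35 CPM).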

How the results depend on the processing

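The segment median kept its direction in every alternative run (0.523 to 0.568), whereas the number of calls did not. Beside 9 calls, 8 of them in the segment, DESeq2 gave 27 (21 in the segment), no low-count filter 75 (26) and no sex term 17 (15). Males only, the replicate block and the 8 libraries alone gave 0 each. Without the libraries high in midbrain genes there were 10 (8 in the segment), 5 of them shared with the main 9. Leaving out 1 library gave 0 to 11 calls, 0 to 10 in the segment. The 9 genes kept their call in 5 (Dnajc28) to 13 (Ifnar1 and nonagouti) of 23 alternatives, with the adjusted p reaching 0.767. The interaction had 0 calls except 128 with no low-count filter. The segment level difference per library was 0.490 with males only (exact permutation p = 0.133), 0.542 without the midbrain-high libraries (exact p = 0.2) and 0.477 to 0.534 without 1 library (exact p = 0.0571), each the smallest p that those numbers allow. Signs turned for Runx1 (0.071 with no sex term, 0.031 with males only, 0.016 with the 8 libraries, -0.26 to 0.089 without 1 library), 9430053O09Rik (0.12 with no sex term, 0.026 with the replicate block, 0.42 without the midbrain-high libraries, -0.26 to 0.42 without 1 library), Gm9843 (0.013 without the midbrain-high libraries, -0.36 to 0.14 without 1 library) and Mir99ahg (0.035 and -0.27 to 0.034). Without 1 library they also turned for Thy1 (-0.065 to 0.21), Itgax (-0.43 to 0.45) and Apoe (-0.094 to 0.0027). The cause was not tested. Same-numbered libraries of both genotypes did not pair: the correlations of their deviations were -0.316 to 0.152, and 1 of 4 was above 0.1. Low counts limit genes under 1 CPM.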
